A study of Drosophila melanogaster and Drosophila simulans and Drosophila yakuba with 30 samples.

Results

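The sloppy-paired locus was described here as the 60 kb of chromosome 2L from 3800000 to 3860000 (D. melanogaster dm3 build) that were taken to hold slp1 and slp2. Its members were the binding intervals overlapping that window by at least 1 bp in the 6 interval lists in D. melanogaster coordinates, 88 of 98045 intervals in all and 88 of the 18420 on 2L. In the RefSeq gene table (Release 6 assembly), slp1 (gene 33607, CG16738) and slp2 (gene 33608, CG2939) were neighbours on 2L with no gene listed between them. In that table lncRNA:CR44076 and lncRNA:CR44077 preceded slp1, and 5 further long non-coding RNAs came between slp2 and TTLL4B, the next protein-coding gene. That assembly is not the build of the lists, so no interval was assigned to a promoter, exon or intergenic stretch of either gene.

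The study mapped 2 group B Sox proteins by DamID-seq, in which a bacterial Dam methylase fused to a transcription factor methylates GATC sites near the places the factor occupies. Dichaete-Dam and Dam-only transgenes were inserted in 4 Drosophila species and SoxN-Dam in 2 of them, giving 10 combinations of species and construct with 3 replicates each, 30 libraries in all. A binding interval is a run of GATC fragments, the stretches between successive GATC sites, with more reads in 3 fusion than in 3 Dam-only libraries at an adjusted p-value below 0.05 in the authors' test. Each list therefore gives 1 interval set for 3 replicates together, without read counts, so the depth is unknown and no value below carries a replicate SD or a p-value.

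The D. melanogaster groups carried pBac3xP3-EGFP-Dichaete-Dam, pBac3xP3-EGFP-SoxN-Dam or pBac3xP3-EGFP-Dam in strain w[1118], and the D. simulans groups carried the same 3 transgenes in w[501]. The D. yakuba groups (Cam-115) and the D. pseudoobscura pseudoobscura (reference strain) groups carried the Dichaete-Dam or the Dam transgene. All libraries came from pooled whole embryos of 0 to 16 h, from flies kept at 25 °C or, for D. pseudoobscura, at 22.5 °C. Embryo collections of all species took place at 25 °C, as the study's methods state. Per the study's methods the fusions encode the D. melanogaster proteins behind UAS sites and an Hsp70 promoter, so the fusion is not expressed from the native Sox gene, and the embryos are a mixture of all cell types and of many stages. Within D. melanogaster and within D. simulans, the Dichaete and SoxN lists rest on 1 shared set of Dam-only libraries. Their values are therefore set side by side here and their overlap in bases is not counted. Interval ends, by contrast, are compared across all lists. For species other than D. melanogaster the reads had been moved to dm3 coordinates before intervals were called. A stretch missing from a translated list may be one that did not translate or one that missed the threshold. Where the D. simulans SoxN-Dam list has an interval and the Dichaete-Dam list has none, reads of that species did translate, and elsewhere these cannot be told apart.

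The sloppy-paired genes encode forkhead-domain transcription factors of the FoxG family. In the D. melanogaster embryo they act first as pair-rule genes and then as segment polarity genes, in stripes that help place the boundaries of expression of wingless and engrailed, and they later take part in the succession of transcription factors that neural progenitors express. slp1 is the more strongly required of the pair in segmentation, and slp2 has a largely overlapping expression and function. Dichaete and SoxNeuro (SoxN) are HMG-box proteins with partly redundant roles in the embryonic nervous system, and Dichaete also acts in segmentation. No genome or sequence table of the lists' build was used here, so no sequence is shown.

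Coverage of the slp window ranged from 6.6% to 60.4% of its bases over the 6 lists, and in 5 of them, D. pseudoobscura included, it was high beside that of other windows of 2L in the same list. Dichaete-Dam intervals in D. melanogaster covered 31332 bp of it (52.2%), in 18 intervals. SoxN-Dam intervals in D. melanogaster covered 30146 bp (50.2%), in 20 intervals. In D. simulans, 13 SoxN-Dam intervals covered 25917 bp (43.2%) and 16 Dichaete-Dam intervals covered 9767 bp (16.3%). In D. yakuba, 16 Dichaete-Dam intervals covered 36257 bp (60.4%), the highest coverage of the 6 lists, and in D. pseudoobscura 5 Dichaete-Dam intervals covered 3961 bp (6.6%), the lowest. The D. simulans Dichaete list thus had nearly as many intervals at the locus as the Dichaete lists of D. melanogaster and D. yakuba but far fewer covered bases. The study describes its D. pseudoobscura profiles as noisier and their replicates as less reproducible than in the other species. It links the low number of intervals in that species to this, which bears on every D. pseudoobscura value below.

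**Figure D1:**
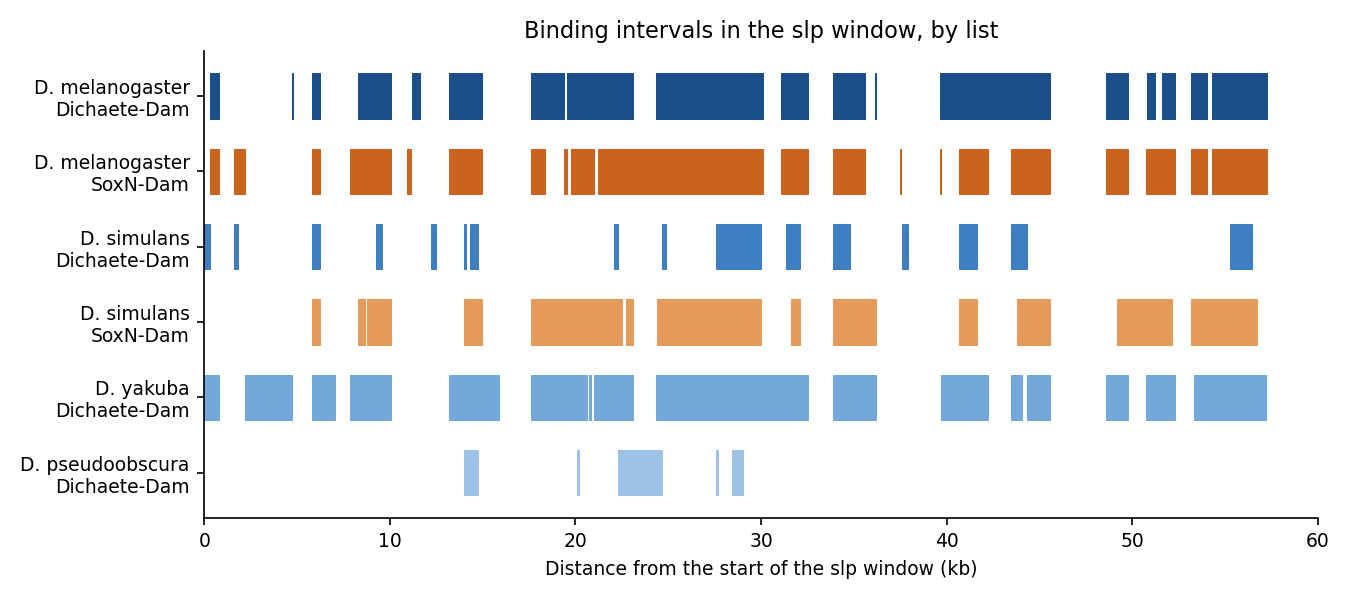
Binding intervals in the slp window, with 1 row per list and the distance from the start of the window in kb on the x axis; each block is 1 interval, clipped to the window. The longest block of every list lies between 20 and 50 kb, and all 5 D. pseudoobscura blocks lie between 10 and 30 kb.

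To set these values against the rest of the arm, 2L was divided into 383 windows of 60 kb in phase with the locus. For D. melanogaster Dichaete-Dam the median window was 16.7% covered, and 3 windows including the slp window (0.783%) reached the 52.2% of slp. For D. melanogaster SoxN-Dam the median was 16.2%, and 4 windows (1.04%) had at least the coverage of slp. The D. simulans SoxN-Dam list had a median of 11.3%, with 3 windows (0.783%) at or above slp. In D. yakuba, where the median was 22.3%, 8 windows (2.09%) were at or above slp. In D. pseudoobscura the median window was 0.22% covered and 7 windows (1.83%) reached the 6.6% of slp. That was 6.24 times a mean window of only 1.06%, and 1 interval of 2420 bp made up most of the 3961 bp covered. In the other lists slp was 1.6 (D. simulans Dichaete-Dam) to 3.47 (D. simulans SoxN-Dam) times the mean window. In the 5 lists other than D. simulans Dichaete-Dam, the slp window lay above the 95th percentile of windows. That percentile ranged from 4.78% of bases in D. pseudoobscura to 51.6% in D. yakuba.

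The D. simulans Dichaete list was the exception. Its slp window stood above the median of 9.17% and just above the upper quartile of 15.5%, and 85 windows (22.2%) were covered at least as much. No window of 2L other than slp reached the slp values in all 4 Dichaete lists, nor in the 3 that leave out D. pseudoobscura, and 1 of the 382 others did so in both SoxN lists. These cutoffs are the values of slp itself. For D. melanogaster Dichaete-Dam alone only 3 windows including slp reached its value, so hardly any window could have passed in several lists. The joint count therefore adds little to the single lists.

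**Figure D2:**
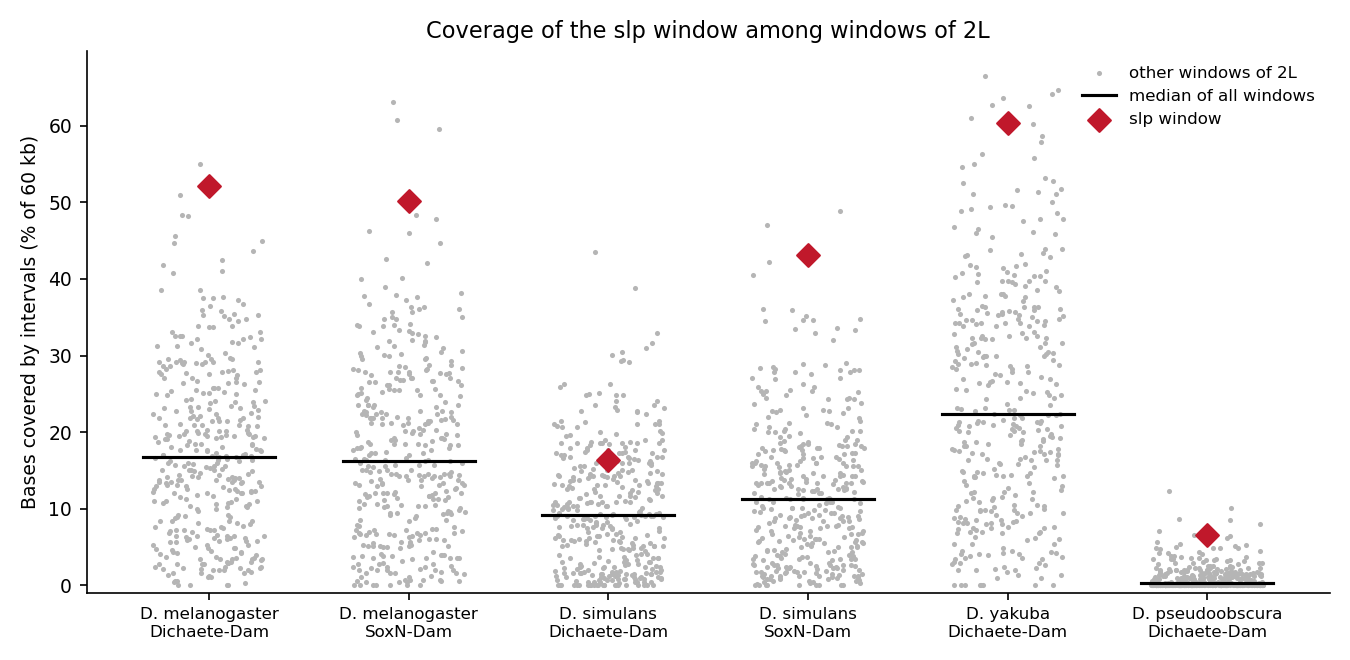
Share of bases covered by binding intervals (y axis, % of 60 kb) in every window of 2L, by list (x axis); grey points are single windows, black lines the median of 383 windows, red diamonds the slp window. The diamonds lie near the top of the points in 5 lists and at 16.3%, inside the bulk of points, for D. simulans Dichaete-Dam.

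The number of GATC fragments in the intervals placed the locus higher still. Intervals centred in the slp window held 168 fragments for D. melanogaster Dichaete-Dam and 136 for D. simulans SoxN-Dam, in each case the most of any of the 383 windows, whose medians were 39 and 23. For D. melanogaster SoxN-Dam 160 fragments were found and 2 windows including slp had as many. For D. yakuba Dichaete-Dam the number was 161, with 3 such windows, and for D. pseudoobscura 22, with 2 such windows. For D. simulans Dichaete-Dam it was 50, a number that 39 windows reached.

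Interval length per fragment was low at slp. Summed interval length divided by the number of fragments was between 180 bp in D. pseudoobscura and 226 bp in D. yakuba. Over whole lists it was 229 bp (D. melanogaster SoxN-Dam) to 297 bp (D. yakuba), and the slp value was below that of its own list in each of the 6. Such a length can include stretches between merged fragments. No map of GATC sites was used, so the spacing of sites and its part in the rank of the locus were not tested.

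By number of intervals the locus stood out less. The 18 D. melanogaster Dichaete-Dam intervals were reached or exceeded in 31 of 383 windows, and the 20 SoxN-Dam intervals in 37. The counts of 13 (D. simulans SoxN-Dam) and 16 (D. yakuba) were reached in 58 and 59 windows. The 16 D. simulans Dichaete-Dam intervals were reached in 24 windows and the 5 of D. pseudoobscura in 16. The high coverage of 4 of the lists thus came with long intervals as well as with many.

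Interval lengths at slp ranged from 6 to 8870 bp. The median length was 1342 bp for D. melanogaster Dichaete-Dam (671 bp over its whole list), 1234 bp for D. melanogaster SoxN-Dam (593 bp), 1281 bp for D. simulans SoxN-Dam (652.5 bp) and 2160 bp for D. yakuba (944 bp). In these lists the middle interval at slp was about 2 times the length of the middle interval of its list. It was 560 bp against 472.5 bp in D. pseudoobscura and, in the reverse direction, 436 bp against 568 bp for D. simulans Dichaete-Dam. Single-fragment intervals made up 8 of the 16 D. simulans Dichaete-Dam intervals (50.0%, against 34.4% of that list), but 2 of 18 for D. melanogaster Dichaete-Dam (11.1% against 27.2%) and 1 of 16 in D. yakuba (6.25% against 26.5%). For SoxN-Dam they were 4 of 20 in D. melanogaster (20.0% against 29.5%) and 1 of 13 in D. simulans (7.69% against 31.4%). None of the 5 D. pseudoobscura intervals was a single fragment, in a list where 57.1% were.

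**Figure D3:**
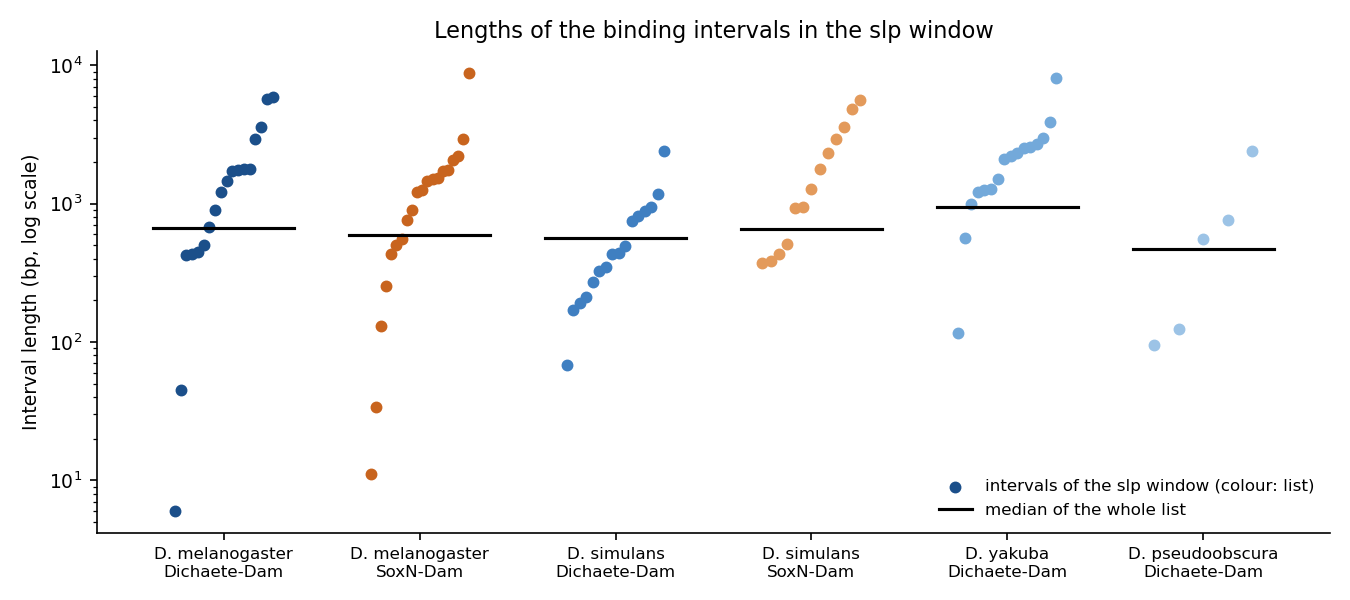
Length of every binding interval in the slp window (y axis, bp, log scale) by list (x axis); each point is 1 interval, ordered by length within its list, and the black line is the median length of the whole list. In 5 lists most points lie above the line, while for D. simulans Dichaete-Dam most lie below it.

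The longest interval of every list lay between 20 and 50 kb into the window. For D. melanogaster Dichaete-Dam they were 2L:3839670-3845576 (5907 bp, 18 fragments), 2L:3824356-3830079 (5724 bp, 31 fragments) and 2L:3819524-3823126 (3603 bp, 37 fragments). The first ranked 206th and the next 224th in length among the 20848 intervals of the list, and 0.187% of intervals had as many as the 37 fragments of the last. The longest SoxN-Dam interval of D. melanogaster, 2L:3821210-3830079, ran over 8870 bp and 47 fragments and ranked 29th of 22952 in length. The next in that list were 2L:3854298-3857247 (2950 bp, 19 fragments) and 2L:3807844-3810057 (2214 bp, 7 fragments). The same 2950-bp interval, with the same 19 fragments, was also in the D. melanogaster Dichaete list.

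In D. simulans the longest SoxN-Dam intervals were 2L:3824400-3829988 (5589 bp, 29 fragments), 2L:3817607-3822484 (4878 bp, 34 fragments) and 2L:3853153-3856711 (3559 bp, 25 fragments). The first ranked 151st of 15142 in length. The longest Dichaete-Dam intervals of D. simulans were shorter, at 2L:3827584-3829988 (2405 bp, 14 fragments), 2L:3855259-3856435 (1177 bp, 5 fragments) and 2L:3840686-3841636 (951 bp, 2 fragments). In D. yakuba they were 2L:3824356-3832522 (8167 bp, 40 fragments), 2L:3853329-3857230 (3902 bp, 25 fragments) and 2L:3817607-3820606 (3000 bp, 15 fragments). The first of these ranked 230th of 20964.

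At the other end, 6 intervals of the locus were under 100 bp. The shortest were single fragments of 6 bp (2L:3804748-3804753) and 45 bp in the D. melanogaster Dichaete list and of 11 bp and 34 bp in the D. melanogaster SoxN list. Reads were extended to 200 bp before counting, per the study's methods, so a read can count on such a fragment while lying mostly outside it.

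The stretch from 25 to 30 kb into the window was fully or almost fully covered in 4 of the 6 lists and was chosen here after its values were seen. It was covered over 100.0% of its 5000 bp in D. melanogaster by both factors and in D. yakuba by Dichaete-Dam. D. simulans SoxN-Dam covered 99.8% of it, D. simulans Dichaete-Dam 48.1% and D. pseudoobscura Dichaete-Dam 13.1%. Of the 4601 such 5-kb stretches of 2L, 21 were as fully covered for D. melanogaster Dichaete-Dam, 17 for SoxN-Dam, 63 for D. yakuba and 14 for D. simulans SoxN-Dam. As many as 197 were covered at least as much as slp for D. simulans Dichaete-Dam, and 138 for D. pseudoobscura.

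The part just before it differed between the Dichaete lists. Between 20 and 25 kb, coverage was 75.4% for D. melanogaster Dichaete-Dam, 96.2% for SoxN-Dam, 69.4% in D. yakuba and 69.4% for D. simulans SoxN-Dam, but 7.2% for D. simulans Dichaete-Dam. D. pseudoobscura had its highest value there, 50.9%. Between 15 and 20 kb, D. simulans Dichaete-Dam had no covered base where SoxN-Dam of the same species, in reads translated the same way, covered 47.9% and the Dichaete lists of D. melanogaster and D. yakuba 45.3% and 65.8%. The longest stretch of the window without a D. simulans Dichaete-Dam interval was 2L:3844308-3855258 (10951 bp), against 5800 bp for D. simulans SoxN-Dam, 3933 bp and 3624 bp for Dichaete-Dam and SoxN-Dam in D. melanogaster and 3494 bp in D. yakuba. In D. pseudoobscura it was longer still, at 30979 bp.

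Across species, the Dichaete intervals of D. melanogaster and D. yakuba at slp largely coincided. Of the 18 D. melanogaster intervals, 16 (88.9%) were overlapped by a D. yakuba interval, against 64.2% of all intervals of the list, and of the 16 D. yakuba intervals 15 (93.8%) were overlapped in return, against 57.0%. The shared bases were 28818, which is 92.0% of the D. melanogaster and 79.5% of the D. yakuba covered bases, against 61.9% and 43.9% over whole lists. The interval 2L:3848569-3849786 (1218 bp, 7 fragments) was identical in both. These intervals were also longer than the list medians given above, and the window was covered more than most of 2L. The parts of length and of coverage in the overlap were not tested.

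The D. simulans Dichaete list overlapped less. It touched 9 of the 18 D. melanogaster intervals (50.0%, against 47.8% of all), close to the background share, and 12 of its own 16 (75%, against 68.7%) were overlapped by D. melanogaster. The shared bases were 8644, which is 88.5% of the D. simulans bases (63.3% over the whole list) but 27.6% of the D. melanogaster bases (38.3%). The D. simulans intervals were thus mostly within stretches also covered in D. melanogaster, and left most of those stretches uncovered.

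Counted base by base and leaving out D. pseudoobscura, 8389 bp of the window were covered by Dichaete-Dam in all 3 species. They were 21.2% of the bases covered in any of the 3, and the same share over 2L was 15.6%. A further 53.1% were covered in 2 of these species (26.9% over 2L) and 25.7% in 1 (57.5% over 2L). Bases covered in D. melanogaster and D. yakuba but not in D. simulans or D. pseudoobscura were the largest class at slp, with 18847 bp or 46.2% of all Dichaete-covered bases, against 16.3% over 2L. Dichaete-Dam covered 52.2% of the slp window in D. melanogaster and 60.4% in D. yakuba, against 17.7% and 24.5% of the mean window. The values over 2L were not matched for coverage, and the part of coverage in these shares was not tested. The bases shared by the 3 species fell into 12 stretches. The longest were 2L:3827584-3829988 (2405 bp), 2L:3855259-3856435 (1177 bp), 2L:3840686-3841636 (951 bp) and 2L:3833889-3834778 (890 bp).

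**Figure D4:**
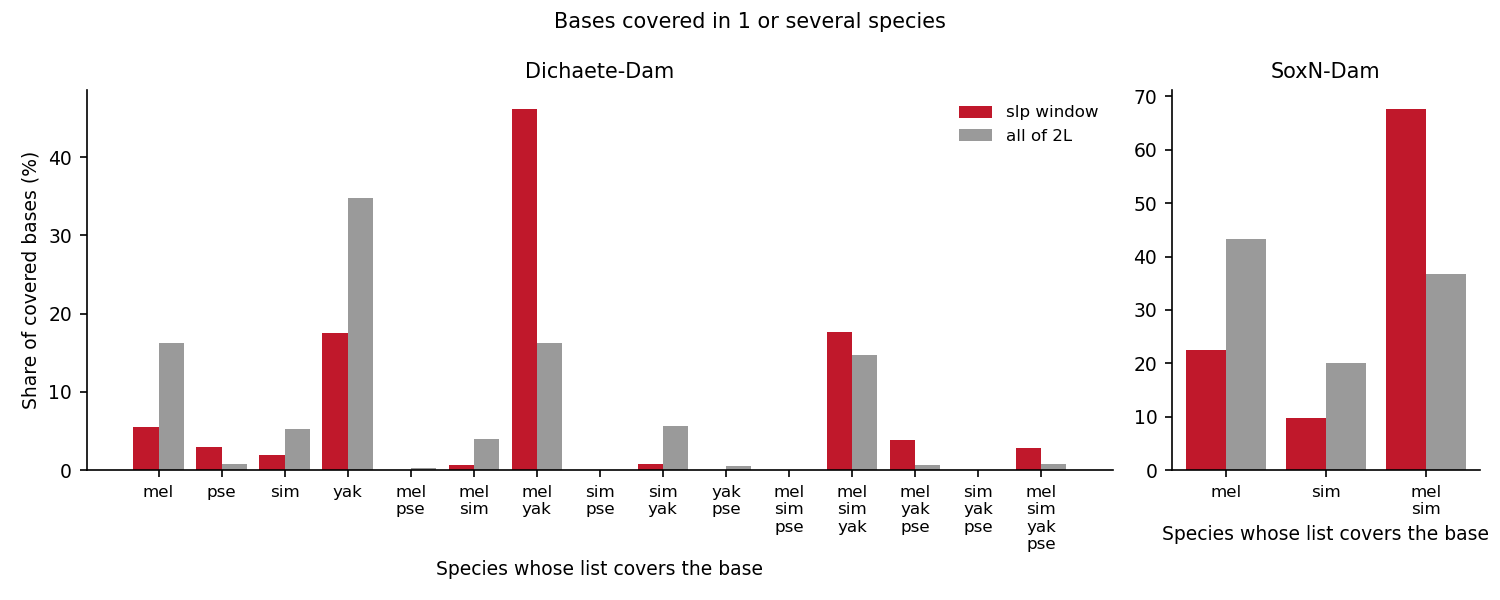
Share of covered bases (y axis, %) by the species whose list covers them (x axis: mel, D. melanogaster; sim, D. simulans; yak, D. yakuba; pse, D. pseudoobscura), for Dichaete-Dam in 4 species and SoxN-Dam in 2, in the slp window (red) and over all of 2L (grey). The red bar is highest for D. melanogaster with D. yakuba (46.2%, grey 16.3%) and for SoxN-Dam in both species (67.7%, grey 36.8%). The grey bars are not matched to the slp window for coverage.

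Between D. melanogaster and D. simulans, SoxN-Dam shared a larger part of the D. melanogaster bases than Dichaete-Dam did (75.1% against 27.6%), and a like part of the D. simulans bases (87.3% against 88.5%). The first share is capped by the coverage of the D. simulans list. Dichaete-Dam covered 9767 bp of the window in D. simulans and 31332 bp in D. melanogaster, and SoxN-Dam 25917 and 30146 bp. The part of this unequal coverage in the contrast between the factors was not tested. All 13 D. simulans SoxN-Dam intervals at slp were overlapped in D. melanogaster (72.8% over the whole list), and 15 of the 20 D. melanogaster intervals (75%) were overlapped in D. simulans (46.2%). Over whole lists the SoxN-Dam bases shared were 45.6% of the D. melanogaster and 64.6% of the D. simulans bases. The 22625 shared bases were 67.7% of all SoxN-covered bases of the window, where the share over 2L was 36.8%. Here too the value over 2L was not matched for coverage, and the part of coverage was not tested. The longest of 18 shared stretches was 2L:3824400-3829988 (5589 bp), the whole length of the longest D. simulans interval. The D. melanogaster intervals without a D. simulans partner were of 499, 557, 254, 11 and 34 bp, all below the list median of 593 bp. The part of length in the overlap was not tested. Whether the difference between the factors in these shares exceeds the spread between replicates could not be tested, since replicates are pooled in each list.

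The 5 D. pseudoobscura Dichaete-Dam intervals were 2L:3814007-3814768 (762 bp, 4 fragments), 2L:3820070-3820193 (124 bp, 2 fragments), 2L:3822269-3824688 (2420 bp, 11 fragments), 2L:3827574-3827668 (95 bp, 3 fragments) and 2L:3828462-3829021 (560 bp, 2 fragments). The whole list held 2020 intervals, 427 of them on 2L. The 2420-bp interval ranked 15th in length among the 2020. All 5 were overlapped by Dichaete-Dam in D. melanogaster, as were 63.8% of the list, and all 5 in D. yakuba, as were 68.3%. In D. simulans 3 of the 5 were overlapped (60.0%, against 42.1%). Dichaete-Dam covered 52.2% of the window in D. melanogaster and 60.4% in D. yakuba, against 17.7% and 24.5% of the mean window. The part of coverage in these overlaps was not tested. In the other direction, 3 of the 18 D. melanogaster intervals (16.7%) had a D. pseudoobscura partner, against 5.32% of all. These 3 were long, at 1749, 3603 and 5724 bp against a list median of 671 bp, and the part of length was not tested.

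In all 4 species, Dichaete-Dam covered 4 stretches of the window with 1150 bp in total. They were 2L:3814007-3814074 (68 bp), 2L:3814332-3814768 (437 bp), 2L:3827584-3827668 (85 bp) and 2L:3828462-3829021 (560 bp), the last being a whole D. pseudoobscura interval. The longest D. pseudoobscura interval was not among them. It joined the D. melanogaster and D. yakuba intervals on its either side, and its inner 1229 bp were covered by Dichaete-Dam in no other species. The 8870-bp SoxN-Dam interval of D. melanogaster ran through that stretch.

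One interval had the same ends, the same length of 435 bp and the same 2 fragments in 4 lists, namely 2L:3805801-3806235 in both factors of D. melanogaster and of D. simulans. In D. yakuba it was the first part of a longer interval of 1264 bp that began at the same base. Intervals are runs of GATC fragments, so ends can recur between lists. For D. melanogaster Dichaete-Dam, 80.6% of ends at slp were also in another list (73.9% over its whole list), and for SoxN-Dam 80.0% (69.4%). In D. simulans the shares at slp were below those of the whole lists, at 46.9% for Dichaete-Dam (64.2%) and 61.5% for SoxN-Dam (68.3%). The part of such recurrence in the identical intervals named here was not tested. Intervals with identical ends did not always hold the same number of fragments, as 2L:3831058-3832522 had 8 fragments for Dichaete-Dam and 7 for SoxN-Dam in D. melanogaster. Fragments within 100 bp of each other were merged, so a fragment in between need not itself be enriched.

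The calls of D. melanogaster changed little at an adjusted p-value below 0.01. Dichaete-Dam then covered 26202 bp and SoxN-Dam 26033 bp of the window, again with 18 intervals for Dichaete-Dam but with 17 for SoxN-Dam. The 3603-, 5724- and 8870-bp intervals of the middle kept every base. The longest Dichaete-Dam interval did not. Of its 5907 bp, 3666 remained, in 3 separate intervals of 34, 1546 and 2086 bp, while the SoxN-Dam list at 0.05 already had 3 separate intervals there. The 6- and 45-bp Dichaete-Dam intervals and the 254-, 131-, 11- and 34-bp SoxN-Dam intervals were not in the stricter lists.

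Coverage fell sharply on one side of the locus. In the next 60-kb window towards higher coordinates, 6.5% of bases were covered for D. melanogaster Dichaete-Dam, 7.53% for SoxN-Dam, 1.73% and 2.91% for Dichaete-Dam and SoxN-Dam in D. simulans, 10.5% in D. yakuba and 0.218% in D. pseudoobscura. In the window on the other side the values were 27.4%, 25.5%, 24.0%, 26.9%, 36.4% and 1.03% in the same order, so that for D. simulans Dichaete-Dam the neighbour was covered more than slp. The last 2753 bp of the slp window held no interval of any list. From the last interval at slp to the next one was 3352 bp for D. melanogaster Dichaete-Dam, 3274 bp for SoxN-Dam, 3913 bp for D. simulans SoxN-Dam and 3394 bp in D. yakuba, but 32373 bp for D. simulans Dichaete-Dam. In D. pseudoobscura it was 32833 bp, of which 30979 bp lay inside the slp window. Further towards lower coordinates a second dense stretch followed. The window 4 places away was covered over 60.8% for D. melanogaster SoxN-Dam, 61.1% in D. yakuba and 47.0% for D. simulans SoxN-Dam. For D. simulans Dichaete-Dam it was 20.8%. Each of these was above slp in its list. The window 3 places away was covered over 63.7% in D. yakuba and 43.5% for D. simulans Dichaete-Dam, the highest value of that list on 2L.

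**Figure D5:**
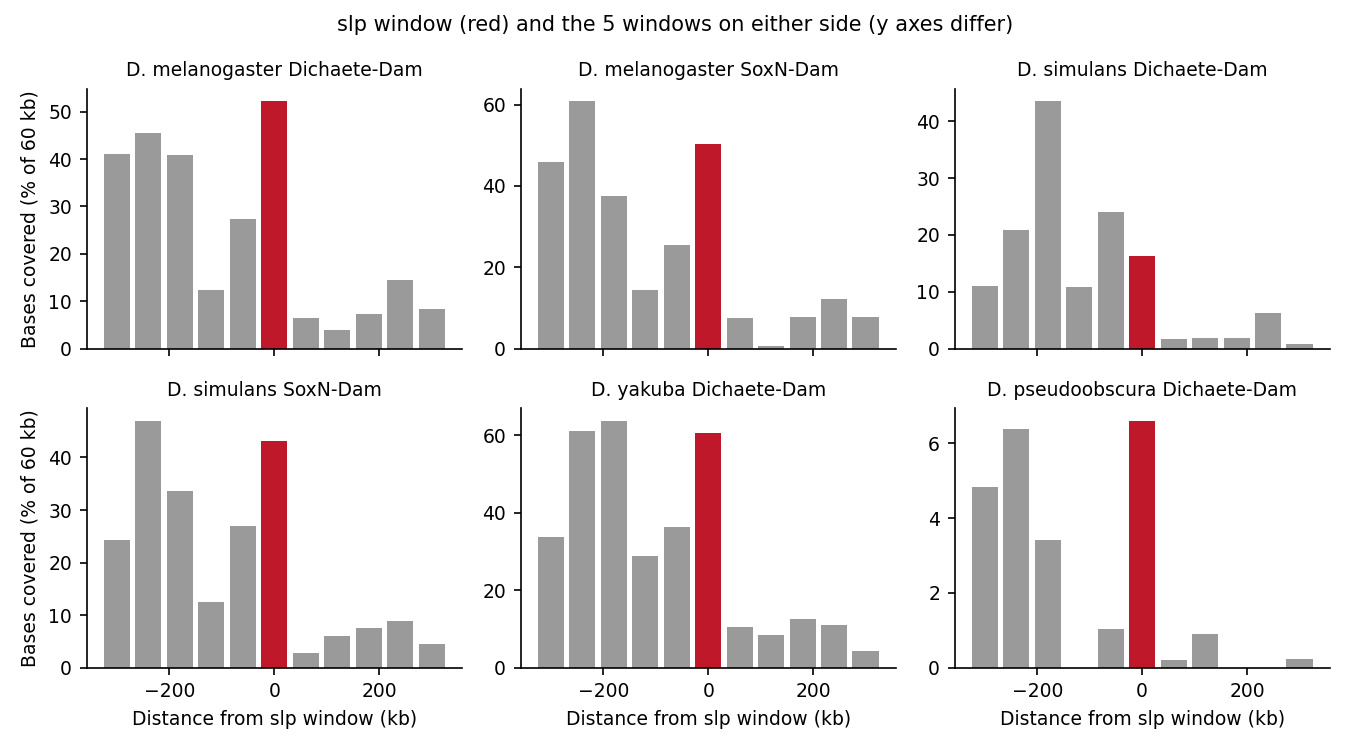
Share of bases covered (y axis, % of 60 kb, axes differ) in the slp window (red) and in the 5 windows on either side (grey), by distance from the slp window in kb (x axis), with 1 panel per list. The windows towards higher coordinates lie between 0 and 14.5% in all panels, and the red bar is the highest of its panel for D. melanogaster Dichaete-Dam (52.2%) and D. pseudoobscura (6.6%).

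In no interval of any of the 6 lists were 15 stretches of the window with 17600 bp. The longest were 2L:3845577-3848568 (2992 bp), the 2753 bp at its end, 2L:3837938-3839669 (1732 bp) and 2L:3815895-3817606 (1712 bp). These gaps lay between the long intervals rather than at the edges alone, and the gap at 3837938 to 3839669 ended where the longest D. melanogaster Dichaete-Dam interval began.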

How the data were processed

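Per the labels and the study's methods, the authors trimmed reads with cutadapt, mapped them with Bowtie2 to each species' genome, translated those of other species to dm3 with LiftOver (minMatch 0.7, or 0.5 for D. pseudoobscura), lengthened each to 200 bp and counted reads per GATC fragment. The authors compared fusion with Dam-only libraries with DESeq2 1.6.1 and merged enriched fragments within 100 bp. The submitters' processing notes also name SAMtools 0.1.19, bedtools 2.21.1 and HOMER 4.7.

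The deposited lists hold no header. Their values are an interval's chromosome, start, end and, as inferred from the values, its number of GATC fragments. No interval given as 1 fragment held an end of any of the 6 lists inside it. Starts are given from base 1. The 4 lists in the other species' own coordinates were not used, since the locus could not be placed in them.

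Values were computed with Python 3.11.15 and NumPy 2.4.6, and plots with Matplotlib 3.10.9. An overlap was 1 bp or more, and windows were compared by description only. Tested on simulated lists, the functions gave the planted answer in 9 of 9 checks. The largest interval end of any list was taken as the end of 2L. The members and rules were chosen with earlier results of these data known. In each list the 3 longest intervals, every D. pseudoobscura interval and the stretches covered in most species were named. Alternatives were the 0.01 lists and other length, fragment, overlap and window rules. Gene positions, pair-rule gene lists, motifs and expression were not analysed here.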

Additional observations from a re-analysis of the deposited data

How the results depend on the processing

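Of 102 alternative values, 90 stayed within 1.5 times the reported count or, for the share of windows at or above slp, within its exact 95% binomial interval, and 12 did not. That interval treats windows as independent draws and is wide where few windows are counted. With widened windows, D. simulans SoxN-Dam stayed within it at 1.83% against 0.783%. With windows widened by 10000 bases on each side, the share of 2L windows covered at least as much as slp was 26.7% for D. simulans Dichaete-Dam, 4.45% in D. yakuba and 3.93% in D. pseudoobscura. With intervals of at least 500 bp it was 30.0% for D. simulans Dichaete-Dam, the locus held 6 D. simulans Dichaete-Dam and 3 D. pseudoobscura intervals, and the bases shared by Dichaete-Dam in 4 species were 560. Joining gaps of up to 1000 bp left 11 D. melanogaster SoxN-Dam intervals. Asking that at least 50% of an interval be covered left 3 D. melanogaster and 1 D. yakuba Dichaete-Dam intervals overlapped in D. simulans, and 0 of either in D. pseudoobscura. The alternatives drop or join intervals, widen windows or ask for a larger overlap, and the cause of these shifts was not tested. Adjusted p-values below 0.01 in D. melanogaster moved no value past these limits. No paired analysis was possible because each list pools its replicates. The overlap of Dichaete-Dam and SoxN-Dam within a species was not computed as a result, since both share their Dam-only libraries. Depth per library was not analysed here, so unbound and thinly read stretches cannot be told apart, nor, outside the stretches that D. simulans SoxN-Dam intervals cover, ones that did not translate to dm3.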
